A study of Mus musculus with 8 samples.

Results

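Common lymphoid progenitors are bone marrow cells that can still give rise to B, T and other lymphoid cells, and the 4 arrays of such cells that retained E2A differed widely in their Ly6d signal. Ly6d encodes a surface protein whose appearance on these progenitors marks a turn towards the B lineage. One WT array and one HEB knockout array read above 6 on the log2 scale at the Ly6d probe set used here (WT replicate 2 and HEB knockout replicate 1), and the other array of each genotype read below it. The genes described here are those that stood at least 2-fold higher, or at least 2-fold lower, on the Ly6d-high array than on the Ly6d-low array in both genotypes. They numbered 83 of 11957 genes tested, 62 higher (0.519%) and 21 lower (0.176%). A gene was tested if its signal lay above the median of the array on at least 2 arrays. The arrays were divided by a measured value and the genes were chosen by the same differences, with 1 array per side and genotype, so these differences are given as a description and carry no test.

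The study profiled bone marrow progenitors of C57bl/6 mice aged 10 to 13 weeks in 3 genotypes: WT (2 arrays), HEB-KO (2 arrays) and E2A-KO (4 arrays). In every group the cells were sorted as LIN-FLT3+CD127+LY6D-, where LIN- means without markers of mature blood lineages, so all 8 arrays are labelled as negative for surface LY6D. Each sort pooled cells of several marrows, at least 2 sorts were made for a genotype, and the RNA was amplified with a second round of in vitro transcription before hybridisation to a mouse expression array. Neither the knockout alleles nor the sex of the pooled mice are given in the sources used here. Differences between single mice do not enter the p-values below, which rest on the spread among arrays made from such pools. In such bulk samples, fewer cells of a type and less RNA per cell cannot be told apart.

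B-lineage specification in these progenitors rests on E proteins, which belong to the basic helix-loop-helix factors and bind E-boxes in pairs. E2A (the products of Tcf3) and HEB (the product of Tcf12) are the main E proteins of early lymphoid cells, and together with FOXO1 they precede EBF1, the factor that commits progenitors to the B lineage. Rag1, which encodes a subunit of the recombinase that cuts antigen receptor genes, and the surrogate light chain gene Vpreb1 are switched on around this step.

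Promoter sequences are shown for the 3 leading members other than Ly6d with an entry in the RefSeq promoter table (assembly GRCm38.p6), because E2A and HEB bind E-boxes. Each sequence is the 250 bases before an annotated start, 5′ to 3′ on the gene's strand, and capitals mark each match to the E-box core CANNTG. Ebf1 has 2 annotated starts in the table. The windows are chr2:101649533-101649782 (minus strand) for Rag1, chr16:16869256-16869505 (minus strand) for Vpreb1, and chr11:44617850-44618099 and chr11:44619978-44620227 (both plus strand) for Ebf1.
Rag1: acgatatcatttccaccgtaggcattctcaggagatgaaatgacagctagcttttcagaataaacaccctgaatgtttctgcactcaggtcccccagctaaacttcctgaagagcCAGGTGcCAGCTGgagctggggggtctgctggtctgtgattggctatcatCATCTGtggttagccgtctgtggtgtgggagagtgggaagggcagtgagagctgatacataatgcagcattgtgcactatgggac
Vpreb1: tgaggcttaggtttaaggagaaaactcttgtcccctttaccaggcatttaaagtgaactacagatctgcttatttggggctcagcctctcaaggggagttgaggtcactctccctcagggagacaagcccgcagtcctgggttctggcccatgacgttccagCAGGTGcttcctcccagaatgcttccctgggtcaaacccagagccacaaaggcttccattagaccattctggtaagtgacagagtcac
Ebf1, upstream start: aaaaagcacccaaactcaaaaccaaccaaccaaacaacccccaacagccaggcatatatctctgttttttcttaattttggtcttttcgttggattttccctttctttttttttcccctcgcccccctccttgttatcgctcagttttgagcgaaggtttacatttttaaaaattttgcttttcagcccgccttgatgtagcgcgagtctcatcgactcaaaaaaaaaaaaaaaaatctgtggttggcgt
Ebf1, downstream start: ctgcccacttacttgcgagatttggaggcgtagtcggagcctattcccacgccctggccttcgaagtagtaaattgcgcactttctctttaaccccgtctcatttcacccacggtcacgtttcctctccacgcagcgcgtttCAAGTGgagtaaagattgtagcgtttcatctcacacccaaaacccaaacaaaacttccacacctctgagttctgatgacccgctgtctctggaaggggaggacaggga
The Rag1 window held 3 matches: the first, CAGGTG, began 135 bases before the start. It was followed by CAGCTG at 128 bases and, closer to the start, by CATCTG at 85 bases. The Vpreb1 window held CAGGTG 88 bases before the start. Of the Ebf1 windows, the first held no match and the second held CAAGTG 108 bases before the start.

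Across the higher members, the E-box core was about as frequent as in the promoters of all tested genes. The letters searched on both strands were those of the E-box core, CANNTG. Within it, the forms CAGGTG and, separately, CAGCTG were counted again. The EBF site and the FOXO site GTAAACA were searched as well, and neither contains an E-box by its letters. The table held 61 promoters of 47 of the 62 higher members, and 57.4% of them contained CANNTG, against 66.2% of all 32851 promoters and 58.3% of those of tested genes. For CAGGTG the shares were 16.4%, 17.2% and 16%, and for CAGCTG they were 19.7%, 13.0% and 12.2%. The EBF site was in none of the 61 promoters and in 0.779% of all, and the FOXO site in 1 of the 61. Of 21 promoters of 17 lower members, 71.4% held CANNTG, 23.8% CAGGTG and 23.8% CAGCTG. A match is a stretch of letters and no measurement of binding.

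The targeted genes followed the genotype labels on these arrays. Tcf3 read 7.76 and 7.98 in WT, 8.57 and 8.44 in HEB knockout and 3.71 to 4.28 in E2A knockout cells (log2 intensity, as are all levels below), and Tcf12 read 7.10 and 6.49 in HEB knockout cells against 8.52 to 8.85 elsewhere. Both gate transcripts Flt3 (10.12 to 11.05) and Il7r (7.89 to 10.91) were far above the array medians, which lay between 3.82 and 3.95. Il7r differed with genotype, at 7.89 to 9.04 on the E2A knockout and 10.50 to 10.91 on the other arrays. Its difference of E2A knockout from WT cells was -2.15 (SE 0.32, adjusted p = 0.033 in limma's test over all genes). WT 2 and HEB knockout 1, the arrays high in Ly6d, had a Pearson correlation of 0.992 with each other across genes, above the 0.977 of the WT pair and the 0.982 of the HEB knockout pair. The Ly6d-low arrays, WT 1 and HEB knockout 2, correlated at 0.966, below both of those pairs, so the arrays did not group by side as a whole. The hybridisation controls read 10.29 and 10.32 on WT 2 and HEB knockout 1 and 11.40 to 12.62 on the other 6, and the 3′ minus 5′ signal of actin was lower on the Ly6d-high array in WT (3.84 against 4.45) and in HEB knockout cells (3.37 against 3.58). Xist, expressed from the inactive X chromosome of female cells, read 9.63 and 9.88 on the Ly6d-high and 11.18 and 10.79 on the Ly6d-low arrays of WT and HEB knockout cells. Eif2s3y, a gene of the Y chromosome, read 8.19 and 7.91 against 7.92 and 6.38 on the same arrays. These values move with the division described here, and their part in it was not tested.

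Ly6d stood highest among the members by its smaller difference. It read 7.83 on WT 2 and 7.52 on HEB knockout 1, against 3.53 on WT 1 and 3.63 on HEB knockout 2, below the array median. The log2 differences were 4.30 in WT and 3.89 in HEB knockout cells, a mean of 4.10 ± 0.29 (SD over the 2 genotypes), or 17.1-fold. Since Ly6d set the sides, these values describe the rule and nothing else.

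Rag1, Ebf1 and Vpreb1 were the other higher members that differed by more than 4-fold in both genotypes. Rag1 read 9.57 on WT 2 and 8.49 on HEB knockout 1, against 5.98 on WT 1 and 5.81 on HEB knockout 2. Ebf1 read 6.90 and 5.79 on the same Ly6d-high arrays and 4.36 and 3.46 on the Ly6d-low arrays. Vpreb1 read 8.42 and 6.67 against 3.78 and 4.53. In each of these genes both Ly6d-high arrays lay above both Ly6d-low arrays, with WT 2 the highest of all 8. Such a separation of the WT and HEB knockout arrays, here and for the members below, is largely set by the rule that chose the members on these arrays. The differences were 3.59 and 2.68 for Rag1, 2.54 and 2.33 for Ebf1 and 4.63 and 2.13 for Vpreb1, in WT and HEB knockout cells in that order. A further probe set of Ebf1 differed by 2.66 and 1.67.

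**Figure D1:**
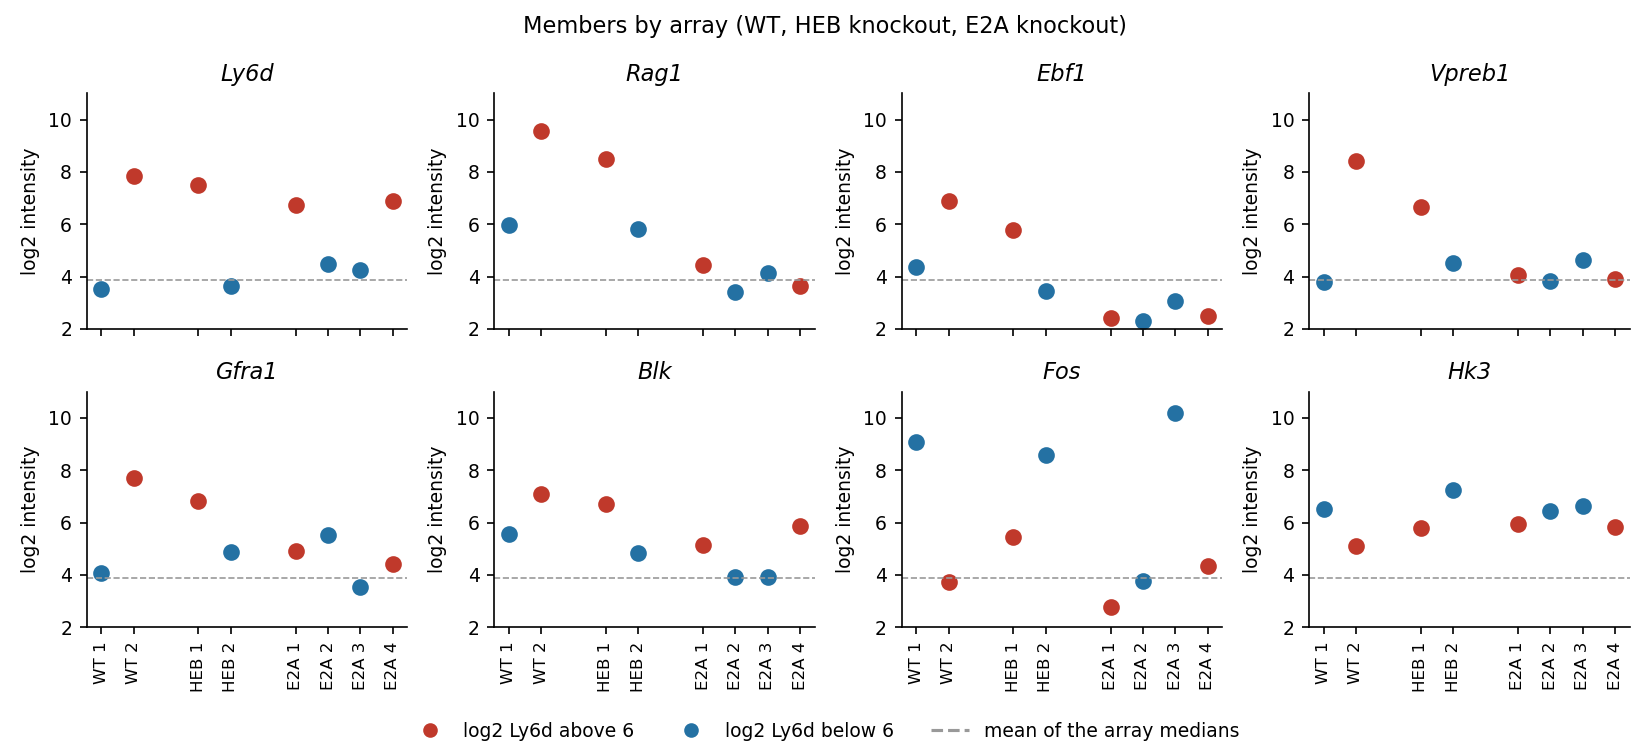
Log2 intensity of 8 members on each array, with WT, HEB knockout and E2A knockout arrays from left to right in each panel, red points for arrays with log2 Ly6d above 6 and blue points for those below; the dashed line is the mean of the array medians. Rag1, Ebf1, Vpreb1, Gfra1 and Blk were higher and Fos and Hk3 lower on the red arrays of WT and HEB knockout cells, while Rag1 and Ebf1 were low on all 4 E2A knockout arrays (at most 4.46 and 3.06).

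Further genes of the B lineage and of antigen receptor recombination were among the higher members. Blk, a Src family kinase of B-lineage cells, read 7.09 and 6.70 on the Ly6d-high arrays of WT and HEB knockout cells and 5.56 and 4.84 on the Ly6d-low arrays. Mzb1, an endoplasmic reticulum protein that helps immunoglobulin assembly, read 6.48 and 5.72 against 5.14 and 4.36. Prkdc, the catalytic subunit of the DNA-dependent protein kinase used to join the cut receptor segments, read 8.07 and 8.44 against 6.85 and 7.26. All 3 had both Ly6d-high arrays above both Ly6d-low arrays. Their differences lay between 1.17 and 1.86, less than those of Rag1 and Ebf1.

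The wider B-lineage list held few members past the threshold. Of its 24 tested genes 3 were at least 2-fold higher in both genotypes (Ebf1, Vpreb1 and Blk) and none was lower, while 17 had positive and 2 negative differences in both, with medians of 0.45 in WT and 0.23 in HEB knockout cells against 0.13 and 0.07 over all tested genes. For this list and the others, the share of all tested genes past the threshold in both genotypes was 0.519% for higher and 0.176% for lower. Signs leaned to positive over all 11957 tested genes as well, with 4920 positive and 2470 negative in both genotypes, and the sign counts of every list are to be read beside these. Pou2af1, a B-cell transcriptional coactivator, differed by 2.09 and 1.0 but was left out by the filter with its level near or below the array medians on most arrays. Igll1, the partner of Vpreb1 in the surrogate light chain, differed by 0.75 and 0.56, and Foxo1 by 0.55 and 0.29. Pax5, which acts after EBF1, differed by 0.23 and -0.25. The lists were written with earlier results of these data known, so their counts describe these arrays only.

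Recombination genes other than Rag1 and Prkdc differed less. Of 11 tested genes of V(D)J recombination and end joining these were the 2 members, and the list medians were 0.43 in WT and 0.00 in HEB knockout cells. In both genotypes 4 of the 11 were positive, the 2 members among them, and 3 were negative. Among end-joining genes, Xrcc6 differed by 0.54 and 0.71, but Lig4 by -0.59 and -0.22 and Nhej1 by -0.09 and -0.36. Rag2, the partner of Rag1 in the recombinase, differed by 0.77 and 0.97 and so stayed under the threshold in both. Dntt, which encodes the terminal transferase that adds bases at the joints, differed by 0.01 and -0.23. Of 20 tested lymphoid priming genes Rag1 was the 1 member, with 13 positive and 2 negative in both genotypes. The pre-B receptor signalling list of 14 genes had Blk as its 1 member, with 9 positive and 2 negative.

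The next higher members by rank had varied roles. Gfra1, a receptor for the neurotrophic factor GDNF, read 7.72 on WT 2 and 6.81 on HEB knockout 1, against 4.08 on WT 1 and 4.86 on HEB knockout 2. Its differences of 3.64 and 1.95 come from 1 probe set, and the other 2 lay below the array median on all 8 arrays. Slc29a1, a nucleoside transporter, read 5.79 and 6.39 against 3.87 and 4.61. Ets2, a transcription factor of the ETS family, read 6.33 and 6.20 against 4.66 and 4.36. Mei4, known for forming DNA breaks in meiosis, read 5.57 and 5.45 against 3.94 and 3.06. Slc49a4, a membrane transporter, read 7.95 and 7.85 against 6.42 and 6.25. In Slc29a1, Ets2, Mei4 and Slc49a4 each array lay closer to the array on its side in the other genotype than to the other array of its own genotype, which the choice of members favours.

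Members further down the ranking again had varied roles. Gimap1, a GTPase needed for the survival of lymphocytes, read 7.28 and 7.50 on the Ly6d-high and 5.96 and 6.17 on the Ly6d-low arrays. Stk17b, a kinase of lymphocytes linked to apoptosis, read 8.74 and 8.28 against 7.05 and 7.04. Further probe sets of Stk17b differed by 0.09 and 0.45 and by -0.19 and 1.66, so its difference depends on the probe set. Sla2, an adaptor that dampens antigen receptor signalling, read 7.45 and 7.34 against 6.30 and 6.25, but a further probe set differed by 1.32 in WT and -1.05 in HEB knockout cells. Bid, which links death receptors to mitochondria, read 6.95 and 7.49 against 5.78 and 6.11 and was the 1 member among 12 tested apoptosis and survival genes. Vegfc, a growth factor of lymphatic vessels, differed by 1.2 and 1.27, and its 2 other probe sets differed by 1.65 and 1.44 and by 1.44 and 1.06. Marcks, a membrane substrate of protein kinase C, differed by 1.54 and 1.28, and by 1.52 and 1.47 at a further probe set. Its 4 other probe sets that passed the filter differed less and had opposite signs in the genotypes, among them one with 0.72 and -0.10 and one with -0.14 and 0.0045, so the Marcks difference depends on the probe set read.

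The remaining higher members covered many roles. Cenpl (centromere), Nek2 (centrosome kinase), Tubd1 and Tubb4b (tubulins) and Kifbp (a kinesin-binding protein) belong to the cytoskeleton and cell division, with smaller differences of 1.11 to 1.38. Ctsl and Psap encode lysosomal proteins and differed by 1.67 and 1.09 and by 1.66 and 1.07. Mavs, Nmi, Card6 and Tifab act in or near innate immune signalling, and of these Tifab differed most in WT (2.54, against 1.05 in HEB knockout cells). Heatr5b, Atraid, Dcun1d3, Sytl4, Rps4l, Gpr25, Rtl6, Cgrrf1, Carf, Tmem115, Mst1r, Nedd4l, Snx7, Rhot1, Zbtb40, Hipk1, Ang, Gpd1l, D830012I24Rik, Commd6, Zfp597, Taf1b, Lrrc47, Spsb4, Gprin3, Ppp6r3, Hsph1, Cnnm4, Kdm7a, Commd2, Ccdc71l, Khdrbs3 and Garre1 complete the group. Over all 62 the mean difference ran from 1.06 to 4.10 with a median of 1.31, or 2.47-fold, and 39 had a smaller difference under 1.2. In 60 of the 62 both Ly6d-high arrays lay above both Ly6d-low arrays, which the rule largely sets and which was not counted over all tested genes. The exceptions were Ang, which encodes a secreted ribonuclease and read 5.72 on HEB knockout 1 and 5.90 on WT 1, and Khdrbs3, an RNA-binding protein that read 4.62 on WT 2 and 5.08 on HEB knockout 2.

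Fos stood far apart from the other lower members. This immediate early transcription factor read 3.74 on WT 2 and 5.44 on HEB knockout 1, the Ly6d-high arrays, against 9.09 on WT 1 and 8.56 on HEB knockout 2. Its differences of -5.35 and -3.12 were the only ones beyond 4-fold in both genotypes among the 21 lower members. Dusp1, a phosphatase of MAP kinases, read 5.68 and 5.22 against 6.73 and 6.59. Zfp36, which promotes the decay of messenger RNAs, read 5.0 and 5.15 against 6.00 and 6.53. All of them belong to the immediate early genes, which cells induce rapidly after many stimuli. Of the 16 tested immediate early and heat shock genes these were the 3 lower members and Hsph1, a heat shock protein that read 9.51 and 9.54 against 8.47 and 8.31, was the 1 higher member. Jun differed by -0.82 and -0.58 and Ier3 by -1.14 and -0.53, while Egr1 differed by -0.06 and 0.32, and the list medians were -0.04 and -0.05.

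Several other lower members are known from myeloid or erythroid cells. Hk3, a hexokinase of myeloid cells, read 5.10 and 5.78 on the Ly6d-high and 6.53 and 7.26 on the Ly6d-low arrays. At a further probe set Hk3 differed by -0.09 in WT and -1.14 in HEB knockout cells, so its WT difference depends on the probe set. Il6ra, the receptor for interleukin 6, read 7.15 and 7.28 against 8.28 and 8.32. Ccl9, a chemokine of myeloid cells, read 6.05 and 5.31 against 7.17 and 6.41. Slc4a1, the anion exchanger of red cells, was dim throughout, at 3.01 and 2.83 against 4.27 and 3.94. It passed the filter only through the Ly6d-low arrays, where it is high, and its other probe sets were never above the array median. The granulocyte and monocyte list as a whole had no member: 4 of its 19 tested genes had positive and 6 had negative differences in both genotypes, and its medians were 0.38 in WT and -0.50 in HEB knockout cells. Its summed intensity was 4956.5 and 5104 on WT 1 and 2 and 6478 and 9132 on HEB knockout 1 and 2, and the neutrophil gene S100a8 differed by 3.52 in WT and by -2.18 in HEB knockout cells. The part of these markers in the result was not tested.

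The rest of the lower group covered varied roles. Epb41l4a, related to cytoskeletal linker proteins, had differences of -1.26 and -2.21, and Btbd3 of -1.59 and -1.50. A further probe set of Btbd3 went the other way, with 2.19 and 0.98, so the direction of this gene depends on the probe set. Rpl27a, a ribosomal protein gene, read 8.18 and 7.73 against 9.39 and 9.39, yet none of 14 tested ribosome and translation genes of the list was a member. Neurl3, Ppp4r3a, Bcl2l12, Atg4c, D630004K10Rik, Igf2r, Pkib, Zfp930, Ovgp1, Map3k12 and Slc9a8 had mean differences from -1.47 to -1.11. Over all 21 the median was -1.21, a size of 2.31-fold, and 13 had a smaller difference under 1.2 in size. In each of the 21 both Ly6d-high arrays lay below both Ly6d-low arrays, which again is largely set by the rule.

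Members were few beside the genes that differed in a single genotype. In WT 503 genes (4.21% of those tested) were at least 2-fold higher and 168 (1.41%) at least 2-fold lower on the Ly6d-high array, and in HEB knockout cells 405 (3.39%) and 128 (1.07%). The 62 shared higher genes made up 12.3% of those in WT and 15.3% of those in HEB knockout cells, and 12 genes were 2-fold higher in WT but 2-fold lower in HEB knockout cells, with 9 the other way. Over all tested genes 61.8% had the same sign in both genotypes, and Pearson's r across genes was 0.28 and Spearman's rho 0.29, over differences that share no array but share the amplification, the array type and Ly6d as the ground for the division. Just inside the threshold were Garre1 (1.0 and 2.18) and Khdrbs3 (1.48 and 1.01) on the higher side and Zfp36 (-1.0 and -1.38) and Slc9a8 (-1.71 and -1.02) on the lower. Just outside were Nat2 (0.999 and 1.45), Tex30 (1.06 and 0.99), Wdfy3 (-0.998 and -1.50) and Ctnnd2 (-0.99 and -1.02). A further probe set of Garre1 went the other way, with -0.80 and -0.70, and another differed by 0.21 and 0.53.

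**Figure D2:**
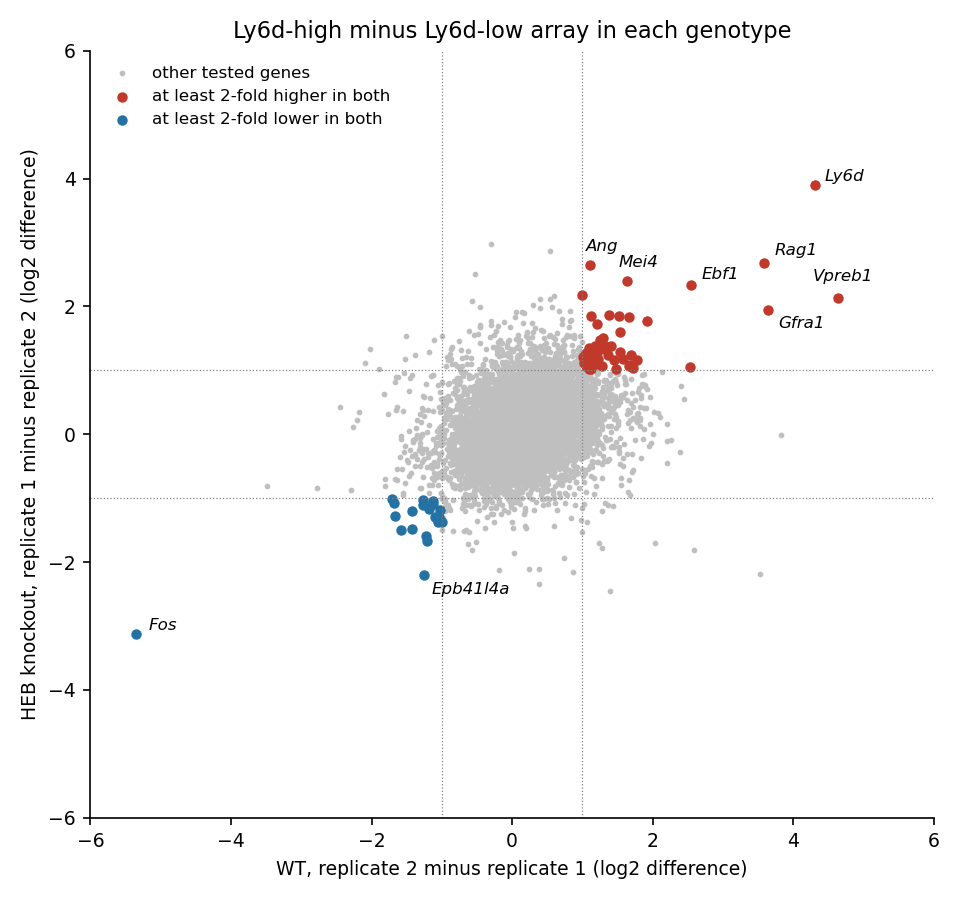
Log2 difference of the Ly6d-high minus the Ly6d-low array in WT (horizontal) against HEB knockout cells (vertical) for the 11957 tested genes, with dotted lines at 2-fold; red points are the 62 higher and blue points the 21 lower members. Most members lie close to the dotted lines, and Ly6d, Rag1, Vpreb1, Ebf1 and Gfra1 at one end and Fos at the other stand away from them.

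The filter on low values left each higher member in through more than its own bright side: no higher member passed only through its Ly6d-high arrays, and 1 lower member (Slc4a1) passed only through its Ly6d-low arrays. For 5 higher members (Ly6d, Carf, Snx7, Zfp597 and Taf1b) both Ly6d-low arrays, and for 2 lower members (Slc4a1 and Pkib) both Ly6d-high arrays, were below the array median, where signal near background makes a difference look smaller. The members had 97 other probe sets, of which 53 passed the filter, and 26 of those had the member's sign in both genotypes. Past the threshold in both genotypes were 4 of them, 1 of Ebf1, 1 of Marcks and 2 of Vegfc. A single probe set reads each of 33 members.

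With the side matched, Ebf1 read lower in HEB knockout than in WT cells on both sides, with differences of -1.11 among the Ly6d-high and -0.90 among the Ly6d-low arrays. For Rag1 these were -1.07 and -0.16. Vpreb1 differed by -1.75 among the Ly6d-high and by 0.75 among the Ly6d-low arrays, and Ly6d by -0.31 and 0.10. Of the 62 higher members 20 were lower and 27 higher in HEB knockout cells on both sides. This was not counted over all tested genes, so it shows no excess either way. By the genotype means, 31 of the 62 were lower in HEB knockout than in WT cells, against 38.2% of all tested genes. Higher members beyond 2-fold the same way on both sides were Ang (-1.29 and -2.82) and Khdrbs3 (1.48 and 1.94). Each value with the side matched sets 1 array against 1 array and has no replicate.

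The differences among the 4 E2A knockout arrays played no part in the choice of members, although these arrays entered the filter and the choice of probe set. A filter on the WT and HEB knockout arrays alone kept 59 of the higher and 20 of the lower members. Division of the E2A knockout arrays by the same Ly6d level put replicates 1 and 4 on the high and replicates 2 and 3 on the low side. Ly6d read 6.75 and 6.88 on the former and 4.48 and 4.26 on the latter. Rag1 read 4.46 and 3.63 against 3.41 and 4.13, Ebf1 2.40 and 2.49 against 2.32 and 3.06, and Vpreb1 4.06 and 3.90 against 3.82 and 4.64. The sides of these 3 genes overlapped, with differences of 0.28, -0.24 and -0.25, while Ly6d itself differed by 2.45. Blk read 5.13 and 5.88 against 3.90 and 3.92, Mei4 4.80 and 4.15 against 2.49 and 2.59, and Gpr25, an orphan receptor, 6.23 and 6.33 against 4.35 and 4.24. In these genes the sides were apart in E2A knockout cells too, by 1.59, 1.94 and 1.99. Xist read 5.02 and 11.14 on the high and 11.61 and 4.64 on the low side, so each side held 1 array with high and 1 with low Xist. Eif2s3y read 8.34 and 2.63 on the high and 3.27 and 8.21 on the low side, opposite to Xist. On the WT and HEB knockout arrays both genes were well above the array medians.

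Across the higher members, 46 of 62 (74.2%) had a positive difference in E2A knockout cells, against 58.5% of all tested genes. A difference of at least 2-fold was found for 9, Ly6d among them, where 3.96% of all tested genes had it: Mei4, Blk, Marcks, Vegfc, Gpr25, Tmem115, Psap and Ppp6r3 were the others. For Marcks, which read 6.76 and 7.80 on the high against 6.94 and 3.48 on the low side, and for Vegfc, which read 6.20 and 4.22 against 4.53 and 3.45, the sides overlapped. The low value of Marcks came from E2A knockout 3 and the high value of Vegfc from E2A knockout 1. Ppp6r3 read 7.47 and 7.13 against 6.80 and 4.91, the last on E2A knockout 3. Its direction depended on the probe set. A further one differed by -0.42 in WT, -0.51 in HEB knockout and -0.64 in E2A knockout cells, and another by -1.09, 0.11 and -0.53. In 22 both Ly6d-high arrays lay above both Ly6d-low arrays (23.3% of all tested genes), and in 4 they lay below (12.9%). The median difference was 0.36 for these members and 0.08 for all tested genes. Of the 21 lower members 12 had a negative difference, where 41.5% of all tested genes did, and 2 were at least 2-fold lower (1.05% of all), Fos by -3.42 and Zfp36 by -1.08. In 3 of them (Hk3, Rpl27a and Slc9a8) both Ly6d-high arrays lay below both Ly6d-low arrays (12.9% of all tested genes), and in 6 they lay above (23.3%). Fos read 2.76 and 4.33 on the high side against 3.76 and 10.18 on the low side, so its difference rested on E2A knockout 3. The arrays were again divided by a measured value, and no test was made.

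**Figure D3:**
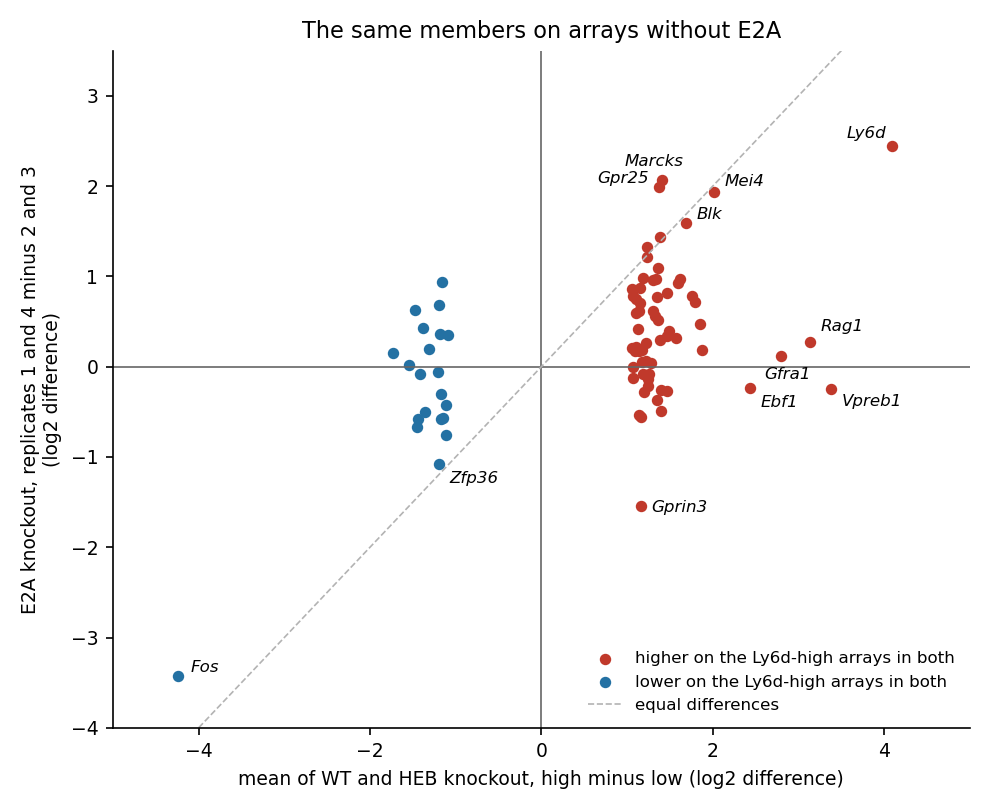
Mean log2 difference of the Ly6d-high minus the Ly6d-low array over WT and HEB knockout cells (horizontal) against the difference between the sides of the E2A knockout arrays (vertical) for the 62 higher (red) and 21 lower (blue) members. Ly6d, Mei4, Blk and Gpr25 lie between 1.59 and 2.45 on the vertical axis, whereas Rag1, Ebf1, Vpreb1 and Gfra1 lie near 0 (-0.25 to 0.28).

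Over all 8 arrays, the genes with the pattern most like that of Ly6d were Dcun1d3 (Pearson's r = 0.970), Ets2 (0.943), Chdh (0.940), Tmed10 (0.936) and Nap1l4 (0.935), and 19 genes exceeded 0.9. Dcun1d3 read 5.30 and 5.22 on the Ly6d-high arrays of WT and HEB knockout cells and 4.79 and 5.31 on those of E2A knockout cells, against 3.82 to 4.08 on the 4 Ly6d-low arrays. Only Dcun1d3 and Ets2 of the 5 were members. These genes were picked from a ranking of all tested genes over the same 8 arrays, so the correlations are a description.

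Loss of E2A was set against WT across all arrays to show how the members varied with genotype. The mean level of Rag1 was 3.91 ± 0.48 (SD, n = 4) in E2A knockout cells, against 7.77 ± 2.54 in the WT pair (n = 2) and 7.15 ± 1.90 in the HEB knockout pair (n = 2). For Ebf1 these means were 2.57 ± 0.33, 5.63 ± 1.80 and 4.62 ± 1.65. All 4 E2A knockout arrays lay below all 4 other arrays for both genes. Yet the differences from WT, -3.86 (SE 0.97) for Rag1 and -3.06 (SE 0.75) for Ebf1, did not pass in limma's test over all genes (adjusted p = 0.140 and 0.131). Sytl4, which acts in vesicle release, had means of 3.41 ± 0.32, 5.49 ± 0.89 and 4.92 ± 1.05 in that order, and Ang of 3.36 ± 0.31, 6.45 ± 0.78 and 4.40 ± 1.87. Their differences of -2.08 (SE 0.47) and -3.09 (SE 0.63) came closest to the threshold in limma's test (adjusted p = 0.105 and 0.0868).

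No member was called in any of the 3 genotype contrasts by limma at an adjusted p under 0.05. Against WT, 47 of all tested genes were lower (0.393%) and 6 higher (0.0502%) in E2A knockout cells. Against HEB knockout cells, 12 were lower (0.1%) and 2 higher (0.0167%) in E2A knockout cells. Single arrays weighed on these counts: without WT 2 limma called 2 genes between E2A knockout and WT, and without E2A knockout 3 it called 104. Between HEB knockout and WT limma called 0 genes (0%), with 312 at an unadjusted p under 0.05. At an unadjusted p under 0.05, 13, 11 and 2 of the higher members and 3, 3 and 0 of the lower members differed between E2A knockout and WT, E2A and HEB knockout, and HEB knockout and WT cells, in that order, beside 1599, 1971 and 312 of all 11957 tested genes. Choosing members for a large difference inside WT and HEB knockout cells raised their residual spread: the median SE of the E2A knockout to WT difference was 0.526 for higher members and 0.280 for all tested genes. Their test therefore had less power than that of other genes.

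The levels of the higher members on the E2A knockout arrays were also set against those on the other arrays. In 47 of 62 (75.8%) all 4 E2A knockout arrays lay below both Ly6d-high arrays, against 27.0% of all tested genes, but members were chosen for being high on those arrays, so this share is in part set by the rule. In 7 of 62 (Ebf1, Gimap1, Gpr25, Kdm7a, Rag1, Sla2 and Sytl4) they lay below all 4 WT and HEB knockout arrays. That share, 11.3%, was close to the 10% of all tested genes. The median difference between E2A knockout and WT cells was -0.39 for the higher members and -0.05 for all tested genes. Among the lower members, Rpl27a (9.84 to 10.66) and Map3k12, a kinase of the JNK pathway (6.77 to 7.94), were above all 4 other arrays in E2A knockout cells, where 4.43% of all tested genes were. For Map3k12 this depended on the probe set. A further one read 4.85 to 5.13 in E2A knockout cells against 5.03 to 5.37 on the other arrays, and another 4.41 to 5.38 against 3.97 to 5.24.

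The gene lists of other lineages and programs supplied no further members. Some members outside these lists are nonetheless known from such programs, among them Hk3, Ccl9, Slc4a1, Nek2 and Cenpl, described above. Of 25 lists, the 18 without a member included those for the T lineage, innate lymphoid cells, Notch signalling, dendritic cells, antigen presentation, mature B cells, the erythroid lineage, stem cells, the cell cycle, interferon and stroma. Hes1, a target of Notch signalling, came near the threshold with 0.94 and 0.93, and its level stayed at 3.74 to 4.81. The Notch list had 5 positive and 1 negative of 9 tested genes, with medians of 0.38 and 0.51. Tal1, a transcription factor of stem and erythroid cells that pairs with E proteins, differed by 1.04 and 0.90. Spib and Siglech, known from plasmacytoid dendritic cells, differed by 0.99 and 0.66 and by 0.77 and 0.58, and in E2A knockout cells by 2.84 and 1.31.

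Stem cell and interferon genes had more negative than positive differences. Of 16 tested stem and multipotent progenitor genes 3 were positive and 8 negative in both genotypes, with medians of -0.09 and -0.20. Hoxa5, a homeobox gene of early progenitors, read 6.04 and 5.91 on the Ly6d-high and 6.70 and 6.88 on the Ly6d-low arrays of WT and HEB knockout cells. Of 24 tested interferon response genes 6 were positive and 13 negative, with medians of -0.13 and -0.27. Each of these medians is smaller than 2-fold and comes without a test. Of the 16 mature B and plasma cell genes on the array, 8 did not pass the filter.

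**Figure D4:**
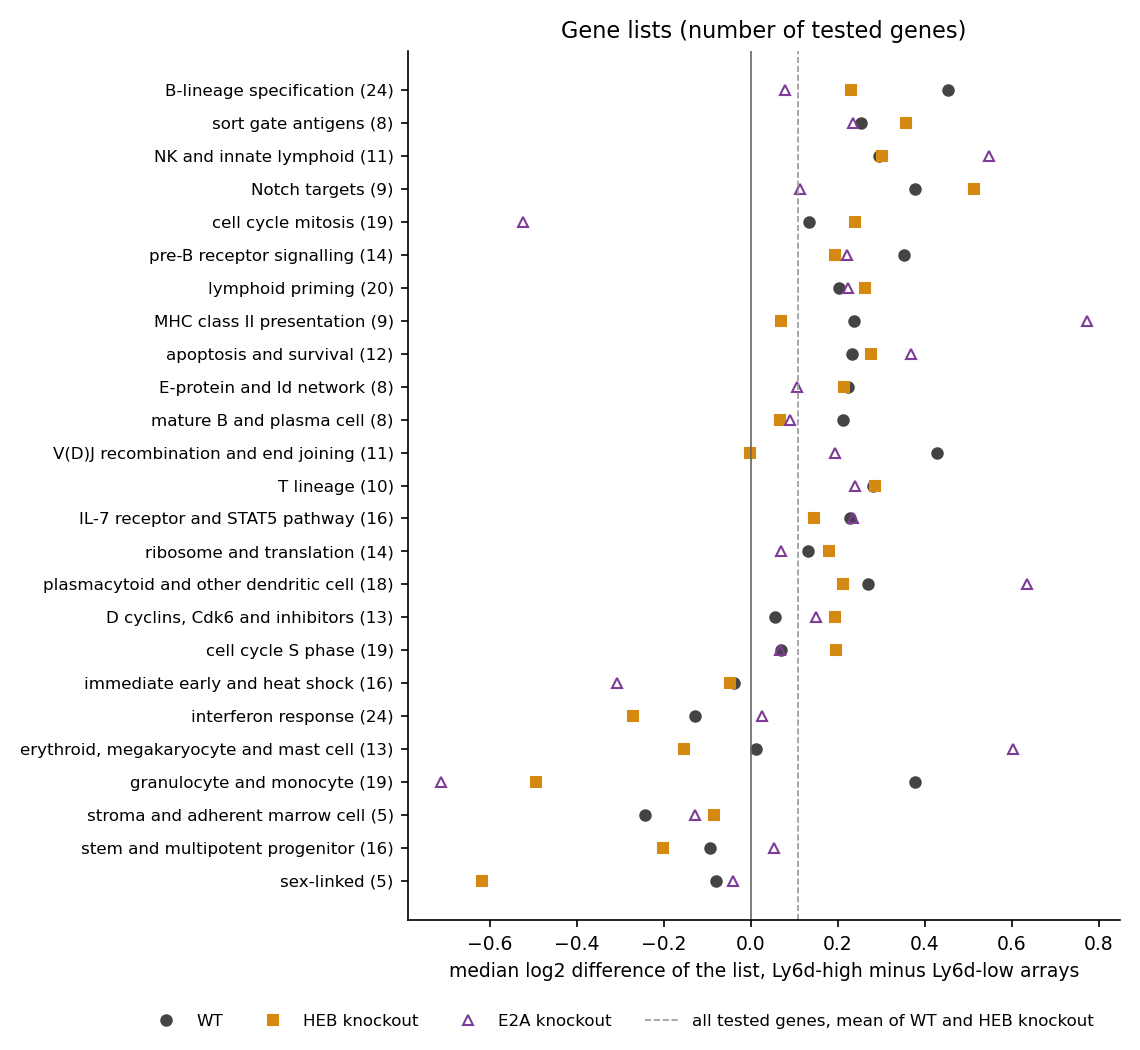
Median log2 difference of the Ly6d-high minus the Ly6d-low arrays for each gene list in WT (circles), HEB knockout (squares) and E2A knockout cells (triangles), with the number of tested genes in parentheses and a dashed line at the median over all tested genes (0.11, mean of WT and HEB knockout). The B-lineage list lay at 0.45 and 0.23 in WT and HEB knockout cells and at 0.08 in E2A knockout cells, and no list median reached 2-fold.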

How the data were processed

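The values were deposited by the authors as linear RMA intensity values per probe set of an Affymetrix mouse array. RMA is named, without a version, in the submitters' processing notes. RMA combines probes and makes the distributions of the arrays alike, so an overall shift between arrays would not be seen, and dim signals are compressed. The log2 of each intensity was taken and nothing was normalized again. No raw probe data were used here. Of 45101 probe sets, 34945 named 1 gene in the platform annotation, 932 named several, 9160 named none and 64 were controls. Each of 18193 genes was read by the probe set whose mean over all arrays was highest, and 11957 genes above the array median on at least 2 arrays were tested.

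A gene was a member if the Ly6d-high minus Ly6d-low difference was at least 1 on the log2 scale, or at most -1, in both WT and HEB knockout cells. Genotypes were compared with limma 3.58.1 under R 4.3.3 on all 8 arrays at once, with 5 residual degrees of freedom, two-sided tests and Benjamini-Hochberg adjustment over all tested genes. The scripts were tested on simulated data. Members, gene lists and the rule for named genes were chosen with earlier results of these data known. Named were Ly6d, Ebf1, Rag1, the members whose smaller difference was largest in each direction, members or leading genes of each list, genes beside the threshold, label and gate checks and the genes most like Ly6d; other members and list genes were named after their values were seen. The main comparison by limma did not pair arrays by replicate number. Deviations of same-numbered WT and HEB knockout arrays correlated at -0.28. With 2 arrays per genotype this is the correlation across the division with its sign turned. It cannot show whether the numbers mark a shared sort or batch. Same-numbered arrays of E2A knockout and the other genotypes correlated at -0.15 to 0.15. The number of arrays limits the precision. Alternatives are in the closing section.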

Additional observations from a re-analysis of the deposited data

Results flagged for a closer look

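Members whose sides were apart in E2A knockout cells in the direction opposite to that in WT and HEB knockout cells numbered 10, and the difference between genotypes was not tested for any of them. They were 4 of the 62 higher members, where 12.9% of all tested genes had both Ly6d-high arrays below both Ly6d-low arrays, and 6 of the 21 lower members, where 23.3% had them above. Of the higher members, Tubd1 differed by -0.49 in E2A knockout cells (1.41 in WT and 1.38 in HEB knockout cells), D830012I24Rik by -0.56 (1.22 and 1.10), Commd6 by -0.54 (1.09 and 1.19) and Gprin3 by -1.54 (1.05 and 1.28). Of the lower members, Neurl3 differed by 0.63 in E2A knockout cells (-1.67 and -1.28), D630004K10Rik by 0.94 (-1.18 and -1.14), Slc4a1 by 0.37 (-1.26 and -1.11), Igf2r by 0.68 (-1.10 and -1.30), Pkib by 0.43 (-1.68 and -1.08) and Il6ra by 0.35 (-1.12 and -1.04).

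In 4 of 130 genes examined, 1 of the 4 E2A knockout arrays stood apart from the other 3 by Dixon's criterion, which chance meets in about 1 in 20 groups. E2A knockout 3 was low for Bcl2l12 (5.99) and high for Prkdc (8.14) and Sparc (5.55), a matrix protein gene. E2A knockout 4 was high for Cdk4 (10.55), a kinase of the cell cycle.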

How the results depend on the processing

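The number of members depended on how a gene is read and where the threshold lies. Against 62 higher and 21 lower members, the mean of all probe sets gave 31 and 7 (28 and 7 of them members), all probe sets as separate features gave 132 and 58 probe sets (of 122 and 58 genes), intensity plus 16 before log2 gave 28 and 6, a 1.5-fold threshold 514 and 127, a 4-fold threshold 4 and 1, and a mean difference of 2-fold with 1 sign 198 and 55. Cyclic loess gave 45 higher and 34 lower genes (43 and 21 of them members). Without 1 array a single genotype is left, with 405 to 503 higher and 128 to 168 lower genes. The share of genes with the same sign in both genotypes was 58.7% without the filter, 65.6% with a filter at the 75th percentile and 59.8% with cyclic loess. The share of higher members with the same sign in E2A knockout cells was 86.0% with that filter, 61.3% with the mean of probe sets, 50% at 4-fold and 69.4% to 77.4% without 1 E2A knockout array; for lower members it was 100% at 4-fold and 42.9% to 57.1% without 1 array. Btbd3 changed sign with the mean of its probe sets (0.0041); the cause was not tested beyond the opposite probe set given above.

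Calls between E2A knockout and WT, 53 in limma's test, numbered 91 with trend and robust estimation, 120 with array weights, 26 with those 2 genotypes alone and 2 to 104 without 1 array: 7 without WT 1, 2 without WT 2, 26 without either HEB knockout array, and 35, 20 and 104 without E2A knockout 1, 2 and 3. The Vpreb1 difference from WT (-2.0 on all arrays) ranged from -4.31 without WT 1 to 0.32 without WT 2. Against HEB knockout cells, 14 calls became 1 with all probe sets, 42, 91 and 6 under the same settings in that order, 29 with the side of the division as a term, and 1 to 21 without 1 array: 1 without either HEB knockout array or E2A knockout 1, 2 and 4 without E2A knockout 2 and 4, and 6 without either WT array. Members called numbered 5 against WT (Ang, Blk, Gpr25, Kdm7a and Sytl4) and 1 against HEB knockout (Gpr25) with the side as a term, which takes out the spread the members were chosen for, and 1 (Ang) with 2 genotypes alone or without either HEB knockout array, 0 to 1 over all arrays left out. With a replicate block, 12, 3 and 0 genes were called against WT, against HEB knockout and between HEB knockout and WT, none of them a member. A crossed pairing of WT and HEB knockout arrays, chosen after seeing the data, called 0 genes by limma, with 1139 at an unadjusted p under 0.05. Of 317 values of named genes in the division under these alternatives, 216 moved by less than their spread, 100 moved further and 1 was the reversal above.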

Other observations

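Probe sets without a gene name in the annotation used here divided the other way. Of 4214 that passed the filter, 12 (0.285%) were at least 2-fold higher and 44 (1.04%) at least 2-fold lower on the Ly6d-high array in both WT and HEB knockout cells, against 0.519% and 0.176% of named genes. The units differ, since a named gene was read by its brightest probe set only. With every probe set of the named genes taken as its own feature, 122 genes were higher and 58 lower. No gene or cause can be given for the probe sets without a gene name here.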
